A study of Mus musculus with 60 samples.

Results

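The 4 genes described here, Nr1d1, Nr1d2, Rora and Nfil3, encode the nuclear receptors and the D-box repressor that make up the stabilising loop of the circadian clock. They were chosen by symbol, and each was found as 1 row among the 27179 genes counted in mouse mid-colon. All 4 were among the 18057 genes that passed edgeR's filter on low counts. Sections of mid-colon, 5 mm long, came from 60 male DBA/1 mice, a strain that is susceptible to collagen-induced arthritis (CIA). In the CIA group, mice aged 9 to 10 weeks received bovine type II collagen in Complete Freund's adjuvant, with a collagen boost on day 21, both at ZT6. The naïve mice shared cages with them and were sampled in parallel; whether they received adjuvant alone is not stated. CIA mice were sampled 7 days after symptoms appeared, so every CIA library comes from a mouse with established disease. Sampling was every 4 h from ZT0 (lights on; ZT12 is lights off) to ZT20, with 5 mice per treatment at every one of the 6 time points and 1 library per mouse.

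In the mammalian clock, BMAL1 (encoded by Arntl) and CLOCK drive transcription from E-boxes, including that of Nr1d1 and Nr1d2. Their products, REV-ERBα and REV-ERBβ, are haem-binding receptors that recruit the NCoR and HDAC3 co-repressor complex to ROR response elements, whereas RORα, the product of Rora, activates transcription from the same elements. Arntl and Nfil3 are known targets of this opposition, and NFIL3 in turn represses D-box genes that the PAR bZIP factors DBP, TEF and HLF activate. In the mouse gut, REV-ERBα and NFIL3 are known to link the clock to lipid uptake by the epithelium and to the development of innate lymphoid cells, and RORα is needed for type 2 innate lymphoid cells.

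The promoter windows of the 3 members with a daily rhythm are shown because these genes rise and fall at different hours. Each runs from 250 bases before to 50 bases after the RefSeq start (GRCm38.p6), 5′ to 3′ on the gene's strand, and capitals mark every match on either strand to the motifs CACGTG (E-box), CACGTT (E′-box), TTANNTAA (D-box) and AGGTCA (the core of a ROR response element).
Nr1d1, chr11:98775328-98775627, minus strand: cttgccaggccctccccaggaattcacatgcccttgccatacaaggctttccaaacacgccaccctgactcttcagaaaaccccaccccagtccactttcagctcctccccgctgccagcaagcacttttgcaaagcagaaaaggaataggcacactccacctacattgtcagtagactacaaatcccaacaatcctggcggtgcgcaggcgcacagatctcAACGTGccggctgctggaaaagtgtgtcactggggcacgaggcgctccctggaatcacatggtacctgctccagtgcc
Nr1d2, chr14:18239057-18239356, minus strand: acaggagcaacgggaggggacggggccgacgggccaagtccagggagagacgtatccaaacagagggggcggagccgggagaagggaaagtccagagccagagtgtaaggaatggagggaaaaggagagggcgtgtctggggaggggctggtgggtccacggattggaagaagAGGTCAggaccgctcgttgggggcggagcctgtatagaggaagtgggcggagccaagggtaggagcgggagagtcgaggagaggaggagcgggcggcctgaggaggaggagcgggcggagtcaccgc
Nfil3, chr13:52980990-52981289, minus strand: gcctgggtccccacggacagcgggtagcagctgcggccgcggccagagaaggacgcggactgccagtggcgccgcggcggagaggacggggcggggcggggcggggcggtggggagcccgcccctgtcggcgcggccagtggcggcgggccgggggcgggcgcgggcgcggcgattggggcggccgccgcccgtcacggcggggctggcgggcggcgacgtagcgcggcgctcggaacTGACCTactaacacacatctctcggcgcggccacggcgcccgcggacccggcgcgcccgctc
The Nr1d1 window held 1 E′-box on the reverse strand, beginning 28 bases before the start. The Nr1d2 window held 1 AGGTCA on the forward strand, 77 bases before the start, and the Nfil3 window held 1 on the reverse strand, beginning 12 bases before the start. The RefSeq start used for Nfil3 lies inside the annotated span of the gene, not at its end. None of the 3 windows held an E-box or a D-box, and the Rora window (chr9:68653536-68653835, plus strand) held none of the 4 motifs. Of 32851 promoter windows of this length, 7.15% held an E-box, 4.68% an E′-box, 6% a D-box and 16.3% an AGGTCA.

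Total counts overlapped between treatments and ranged from 25840240 to 61425974 per naïve library (median 43267100) and from 31382664 to 57564488 per CIA library (median 45528580). Levels are CPM, counts relative to the library total after TMM scaling, and given as mean ± SD. As the labels do not say whether the mice of a group came from separate cohorts, p values measure the spread between these mice. Of the markers written down for other cell types, all 10 for smooth muscle and all 8 for enteric neurons and glia were higher in CIA, all 5 for macrophages were lower, against 17.6% of all genes higher and 20.4% lower. None of 6 fibroblast markers was called, 2 of 6 for skeletal muscle were higher and 6 of 7 interferon-stimulated genes lower, and all 10 for colon epithelium were expressed, 3 of them lower in CIA. The summed interferon-stimulated genes had a median of 373 CPM in naïve and 375 CPM in CIA libraries, and a highest value of 2228 and 633 CPM. For the summed skeletal muscle markers, the medians were 23.9 and 41.6 CPM and the highest values 127 and 347 CPM. Whether single libraries carried these calls was not tested.

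A pair of ZT4 libraries stood apart from their groups in the clock genes, and the steps, orders and ZT4 comparisons that use these groups were also run without both, in runs chosen after the values had been seen. Naïve ZT4 replicate 4 had Nr1d1 at 277 CPM, where the other 4 naïve mice lay between 67.5 and 139 CPM. Its Nfil3 was 1.91 CPM against 9.32 to 12.6 CPM, its Arntl 12 CPM against 53.9 to 70.3 CPM, and its Dbp 84.2 CPM against 4.03 to 11 CPM. CIA ZT4 replicate 4 departed the other way. Its Nr1d1 was 55.9 CPM, where the other 4 CIA mice lay between 161 and 240 CPM, and its Arntl was 72.6 CPM against 28.7 to 41 CPM. In Nr1d1, the CIA library lay below all 5 naïve ZT4 mice and the naïve library lay above all 5 CIA ZT4 mice. Whether the labels of these 2 libraries were exchanged was not tested, and the files cannot settle it, so each ZT4 value holds only as far as these labels do. Naïve ZT0 replicate 2 also departed from its group, with Nr1d1 at 38.8 CPM against 8.14 to 16.9 CPM and Nr1d2 at 47.5 CPM against 5.44 to 16.4 CPM.

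Nr1d1 encodes REV-ERBα (chromosome 11, 98767932 to 98775377, GRCm38.p6) and had the highest F statistic for a 24 h rhythm of all genes tested in naïve colon. Its level rose steeply after lights on and was highest at ZT8, when the 5 naïve mice had 297, 195, 222, 240 and 302 CPM and the 5 CIA mice 195, 199, 282, 252 and 274 CPM. At ZT20, the lowest point, the naïve mice had 7.58, 8.77, 8.30, 8.21 and 8.46 CPM, and the CIA mice 7.80, 12.8, 13.2, 11 and 14.3 CPM. The ranges of ZT8 and ZT20 were far apart in both treatments, with a ratio of the means of 30.4 in naïve and 20.3 in CIA colon. By edgeR's quasi-likelihood F test of a 24 h cosine, adjusted by Benjamini-Hochberg over all genes, the rhythm had an adjusted p of 1.89e-15 in naïve and 3.20e-14 in CIA mice. By the F statistic it ranked 1 and 2 of 18057 genes in these tests, in which 35.4% of genes were called rhythmic in naïve and 29.6% in CIA mice. The fitted amplitude, from the mean to the peak, was 2.52 ± 0.15 on the log2 scale (SE, n = 30) in naïve and 2.24 ± 0.15 in CIA mice, against medians of 0.18 and 0.15 over all genes.

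The other levels of Nr1d1 were ordered as follows. In naïve mice ZT8 was followed by ZT12 (145 ± 43 CPM), ZT4 (141 ± 82 CPM), ZT16 (32.6 ± 20.3 CPM), ZT0 (18.9 ± 11.6 CPM) and ZT20 (8.26 ± 0.44 CPM). In CIA mice ZT8 was followed by ZT4 (167 ± 69 CPM), ZT12 (116 ± 27 CPM), ZT0 (30.4 ± 14.3 CPM), ZT16 (26.8 ± 17.7 CPM) and ZT20 (11.8 ± 2.5 CPM). Among neighbours in these orders, the test set apart 1 pair in each treatment: ZT4 exceeded ZT16 in naïve mice (adjusted p = 4.56e-04) and ZT12 exceeded ZT0 in CIA mice (adjusted p = 4.30e-04). The other 4 neighbouring pairs in each treatment did not pass the test, although the ZT8 and ZT12 values of naïve mice did not overlap. Here and below, neighbours in level were found by sorting the same means that were then tested, which set the direction of each pair beforehand. For pairs that are not consecutive in time, the share of all genes called was not counted. From each time point to the next, the level rose from ZT0 to ZT4 in both treatments, by 2.90 ± 0.40 (SE) on the log2 scale in naïve (adjusted p = 5.05e-05) and 2.45 ± 0.40 in CIA mice (adjusted p = 0.00177). It then fell from ZT12 to ZT16 in both, with a log2 step of -2.15 ± 0.39 in naïve (adjusted p = 0.0113) and -2.12 ± 0.39 in CIA mice (adjusted p = 0.00284), with a further fall from ZT16 to ZT20 called in naïve mice (log2 step -1.98 ± 0.40, adjusted p = 0.0337). Without the ZT4 pair, the rise from ZT0 to ZT4 was 2.49 ± 0.37 in naïve (adjusted p = 3.63e-04) and 2.67 ± 0.37 in CIA mice (adjusted p = 3.30e-05), ZT4 exceeded ZT16 in naïve mice with an adjusted p of 0.00270, and no call among the steps or neighbours of Nr1d1 changed. Few other genes moved in the rising step: 0.41% of genes were called from ZT0 to ZT4 in naïve and 0.0111% in CIA mice (0.32% and 0.0276% without the ZT4 pair). The falling step from ZT12 to ZT16 was called for 0.233% and 4.54%. In the remaining steps of naïve mice, 0.282% of genes were called from ZT20 to ZT0, 0.0665% from ZT4 to ZT8, 6.35% from ZT8 to ZT12 and 0.0222% from ZT16 to ZT20, and in those of CIA mice 0.0941% from ZT20 to ZT0, 0.0941% from ZT4 to ZT8, 0.809% from ZT8 to ZT12 and 0% from ZT16 to ZT20.

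**Figure D1:**
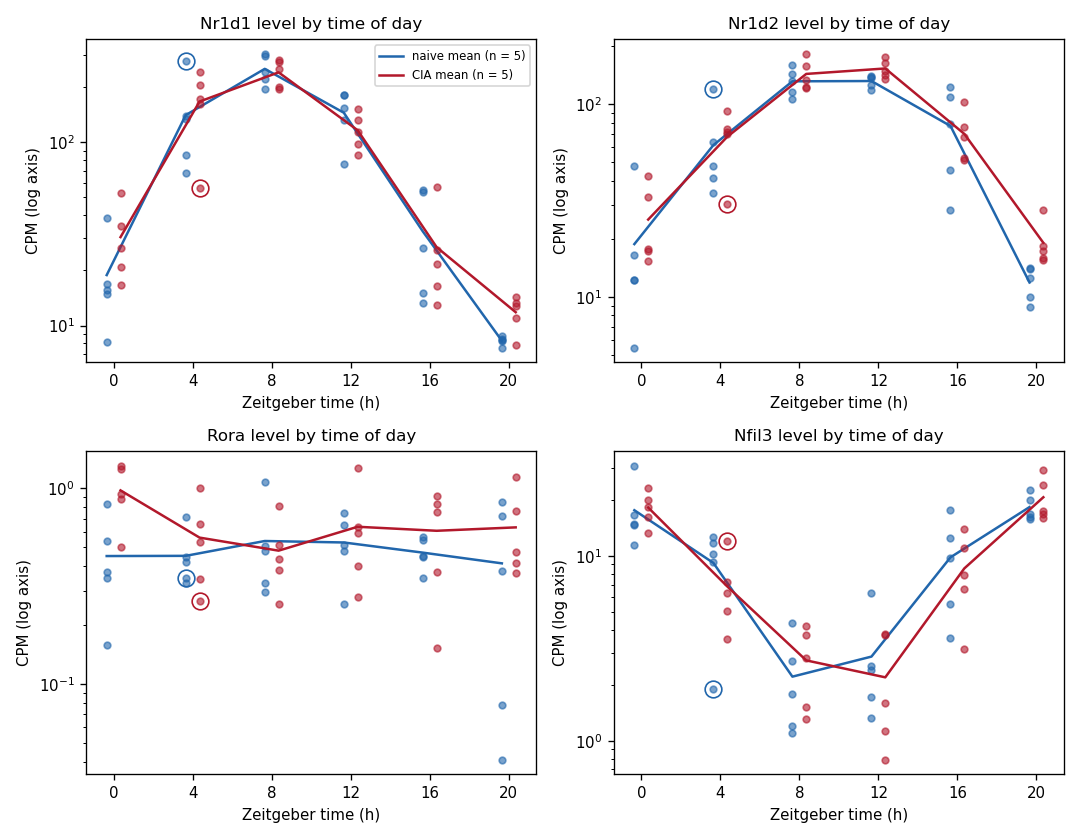
Level of each member by zeitgeber time in CPM, on a log axis, with 1 point per mouse and a line through the arithmetic mean of 5 mice in naïve (blue) and CIA (red) colon; rings mark ZT4 replicate 4 of each treatment. Nr1d1 and Nr1d2 are high at ZT8 and low at ZT20, Nfil3 runs opposite, with its lowest means at ZT8 and ZT12, and Rora is low at every time point with no daily pattern called.

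Nr1d2 encodes REV-ERBβ (chromosome 14, 18204056 to 18239106) and followed Nr1d1 with a broader and later peak. In naïve mice the ZT8 values were 144, 115, 107, 131 and 160 CPM and the ZT12 values 118, 139, 127, 138 and 138 CPM, with nearly equal means of 131 ± 21 and 132 ± 9 CPM. In CIA mice the means were 144 ± 26 CPM at ZT8 and 153 ± 17 CPM at ZT12. In each treatment, ZT8 and ZT12 overlapped and did not pass the test (adjusted p = 0.996 in naïve and 0.953 in CIA mice). The level had risen from ZT0 to ZT4 in naïve mice, from 18.8 ± 16.6 to 61.3 ± 34.3 CPM (log2 step 1.71 ± 0.36, adjusted p = 0.0176, where 0.41% of genes were called), while the same step in CIA mice, from 25 ± 12 to 68 ± 23 CPM, did not pass (log2 step 1.43 ± 0.36, adjusted p = 0.324), and the difference between these steps was not tested by itself. Without the ZT4 pair this naïve step was no longer called (1.31 ± 0.34, adjusted p = 0.0831), while the step from ZT4 to ZT8 was (1.5 ± 0.4, adjusted p = 0.0252, where 0.672% of genes were called). In CIA mice the fall from ZT16 to ZT20 was then called (log2 step -1.87 ± 0.33, adjusted p = 0.00739, where 0.0276% of genes were called), as was ZT8 over ZT16 (adjusted p = 0.0369). For ZT8 over ZT16 the share of all genes called was not counted. ZT8 and ZT16 were neighbours in level only with all libraries kept. In the run without the pair, CIA ZT4 (77.0 ± 10.0 CPM, n = 4) came between them (log2 difference of ZT16 over ZT4 -0.13 ± 0.34). With 1 library left out, the number of called naïve steps of Nr1d2 was 1 in place of 2 without naïve ZT0 replicate 1, 3 or 4 or naïve ZT4 replicate 5. The level then fell between ZT16 and ZT20 in naïve mice, from 77.1 ± 40.5 to 11.9 ± 2.4 CPM (log2 step -2.69 ± 0.37, adjusted p = 4.26e-05, where 0.0222% of genes were called), and between ZT12 and ZT16 in CIA mice, from 153 ± 17 to 70.1 ± 21.2 CPM (log2 step -1.13 ± 0.35, adjusted p = 0.0499). The CIA step was at the threshold, and no step of Nr1d2 in CIA mice was called in 43 of the 60 runs that left out 1 library. The rhythm had an adjusted p of 7.78e-11 in naïve (rank 16 by F) and 6.60e-10 in CIA mice (rank 23), and its amplitude on the log2 scale was 1.92 ± 0.15 and 1.63 ± 0.15, respectively.

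The 2 REV-ERB genes thus had peaks set apart in time. Nr1d1 had its fitted peak at ZT8.39 ± 0.23 h (SE) in naïve and ZT7.67 ± 0.26 h in CIA mice, and Nr1d2 at ZT10.1 ± 0.3 h and ZT9.99 ± 0.35 h, a lag of 1.70 h in naïve and 2.32 h in CIA mice. Their ratio within a library, which does not depend on scaling, swung accordingly. The mean log2 ratio of Nr1d1 to Nr1d2 counts was 1.17 ± 0.51 (SD, n = 5) at ZT4 and -1.29 ± 0.27 at ZT16 for naïve colon, and 1.24 ± 0.30 and -1.54 ± 0.43 for CIA colon. Without the ZT4 pair, the ZT4 ratio was 1.16 ± 0.59 in naïve and 1.32 ± 0.25 in CIA colon (n = 4 each, two-sided exact permutation p = 0.686; the smallest p that 4 against 4 mice allow is 0.0286). At matched time points, the ratio passed the threshold between treatments in none of 6 exact permutation tests (two-sided, adjusted over 18 tests of 3 ratios, adjusted p from 0.929 to 0.992; the smallest p that 5 against 5 mice allow is 0.00794). Over the day it averaged 0.095 in naïve and -0.066 in CIA mice, a difference of -0.16 that did not pass a permutation test within time points (two-sided, n = 30 per treatment, p = 0.0702, adjusted over 3 ratios p = 0.211).

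Nfil3 encodes the D-box repressor NFIL3, also known as E4BP4 (chromosome 13, 52967209 to 52982878), and ran nearly opposite to the REV-ERB genes. It was highest at ZT20, when naïve mice had 15.9, 16.9, 20.1, 22.9 and 16.2 CPM and CIA mice 16, 17.4, 24.3, 29.4 and 16.8 CPM. It was lowest in naïve mice at ZT8, with 1.10, 4.32, 2.70, 1.80 and 1.21 CPM, and in CIA mice at ZT12, with 1.61, 3.72, 3.78, 1.12 and 0.791 CPM. The high and the low values did not overlap in either treatment, and the ratio of the means was 8.27 in naïve and 9.43 in CIA colon. The rhythm had an adjusted p of 2.71e-08 in naïve (rank 73 by F) and 2.62e-09 in CIA mice (rank 35), an amplitude of 1.72 ± 0.18 and 1.81 ± 0.18 on the log2 scale, and a peak at ZT21.7 ± 0.4 h and ZT21.9 ± 0.4 h. Its peak came 13.3 h after that of Nr1d1 in naïve and 14.2 h after it in CIA mice, and 1.52 h and 1.21 h before that of Arntl, which peaked at ZT23.3 and ZT23.1.

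Between consecutive time points, 1 step of Nfil3 was called, the rise from ZT12 to ZT16 in CIA mice, from 2.21 ± 1.44 to 8.57 ± 4.18 CPM (log2 step 1.95 ± 0.46, adjusted p = 0.0100). In naïve mice the same step went from 2.86 ± 1.97 to 9.84 ± 5.65 CPM (log2 step 1.79 ± 0.46, adjusted p = 0.0787). The difference between these steps was not tested by itself. In order of level (ZT20, ZT0, ZT16, ZT4, ZT12 and ZT8), 1 pair of neighbours passed in naïve mice, ZT4 over ZT12 (adjusted p = 0.0152). For ZT4 over ZT12 the share of all genes called was not counted. No neighbouring pair passed in CIA mice, in which the last 2 time points changed places. Without the ZT4 pair, 2 steps of Nfil3 were also called in naïve mice, the fall from ZT4 to ZT8 (-2.30 ± 0.44, adjusted p = 0.00345) and the rise from ZT12 to ZT16 (1.79 ± 0.42, adjusted p = 0.0418). These steps were called for 0.672% and 0.259% of genes. The CIA rise was 1.94 ± 0.42 (adjusted p = 0.00600, where 4.79% of genes were called), and ZT4 over ZT12 in naïve mice had an adjusted p of 0.00350. In that run ZT4 and ZT12 were no longer neighbours in level, as naïve ZT4 (10.9 ± 1.4 CPM, n = 4) lay above ZT16 (log2 difference of ZT16 over ZT4 -0.15 ± 0.42).

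Rora (chromosome 9, 68653404 to 69388246) was close to the limit of detection in whole mid-colon, with 2 to 44 counts per naïve and 6 to 61 per CIA library. Its level was 0.475 ± 0.229 CPM in naïve and 0.648 ± 0.327 CPM in CIA mice (n = 30 each). No 24 h rhythm was called (adjusted p = 0.783 in naïve and 0.445 in CIA mice). Its amplitude on the log2 scale was 0.31 ± 0.19 and 0.30 ± 0.19, and no neighbouring time points or ordered levels passed the test. At this depth a rhythm of small amplitude was not detectable, and its fitted peak hours are not interpretable. Scaled to the length of the exons in GENCODE vM21, the mean levels were 32.3 RPKM (CPM per kilobase of exon) for Nr1d1, 13.3 for Nr1d2, 4.95 for Nfil3 and 0.0363 for Rora in naïve colon, and 32.1, 14.8, 4.89 and 0.0496 RPKM in CIA colon. Rorb, which encodes RORβ, had 0.0239 RPKM in naïve and 0.0268 RPKM in CIA mice.

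**Figure D2:**
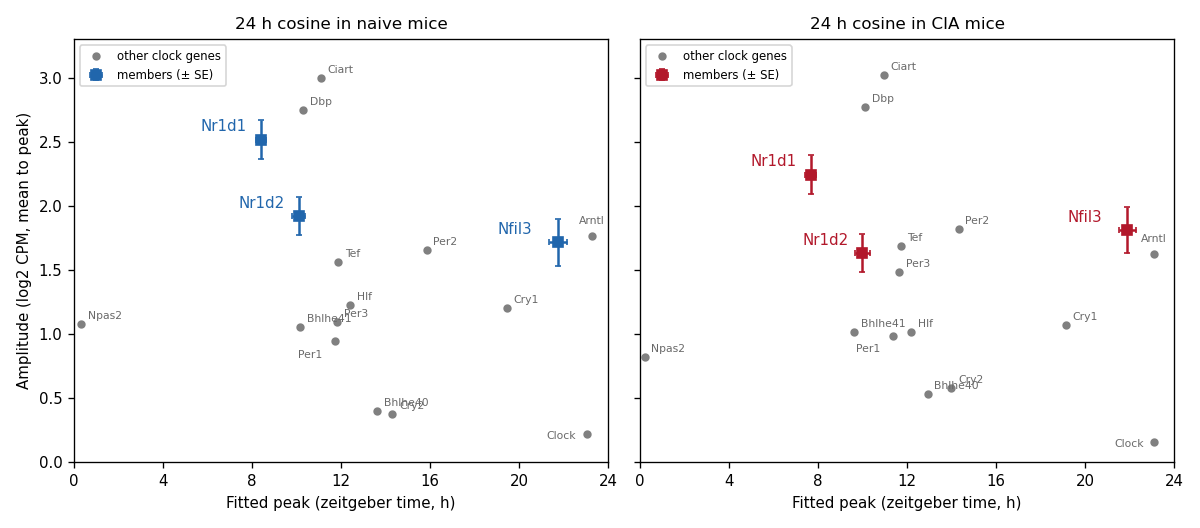
Amplitude (log2 CPM, from the mean to the peak) against fitted peak hour of the 3 rhythmic members (squares, ± SE) and of other clock genes (grey, no error drawn), in naïve mice (left) and CIA mice (right). Nr1d1 peaks before Nr1d2 in both panels, and Nfil3 lies next to Arntl on the opposite side of the day.

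CIA and naïve colon were then compared for the level of each member. Over all 60 libraries edgeR called none of the 4 (1 of 4, Rora, had an unadjusted p under 0.05), where 38% of all genes did (17.6% higher and 20.4% lower in CIA). Nr1d1 averaged 99.4 ± 97.5 CPM in naïve and 98.7 ± 91.5 CPM in CIA mice, a spread that includes its daily rhythm (log2 fold change -0.0096 ± 0.41 (SE), adjusted p = 0.988). Nr1d2 averaged 72.1 ± 53.5 and 79.8 ± 55.8 CPM (0.15 ± 0.32, adjusted p = 0.739), and Nfil3 10.0 ± 7.6 and 9.90 ± 8.04 CPM (-0.020 ± 0.33, adjusted p = 0.969). With time point as a factor, which takes the daily swing out of the spread, the log2 fold change was 0.13 for Nr1d1 (adjusted p = 0.540), 0.24 for Nr1d2 (adjusted p = 0.167) and -0.077 for Nfil3 (adjusted p = 0.750).

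Rora came nearest to the threshold, with a log2 fold change of 0.44 ± 0.20 (adjusted p = 0.0686). It was called in 7 of the 60 runs that left out 1 library, with adjusted p between 0.0316 and 0.110 over all 60. These were the runs without naïve ZT8 replicate 2 (log2 fold change 0.51, the smallest adjusted p), naïve ZT0 replicate 5, naïve ZT20 replicate 1, CIA ZT4 replicate 4, CIA ZT8 replicate 1, CIA ZT8 replicate 4 and CIA ZT16 replicate 5 (0.47 to 0.49). Rora moved with the smooth muscle markers, whose summed level ranged from 6005 to 29140 CPM in naïve and from 10749 to 37682 CPM in CIA libraries, with no marker at 0. Within naïve mice, Rora and the smooth muscle score (the mean log2 CPM of the 10 markers) correlated with r = 0.65 and rho = 0.48 (permutation p = 9.00e-05 and 0.00737, n = 30), and r was 0.45 without naïve ZT8 replicate 2 and naïve ZT20 replicate 5. Within CIA mice r was 0.76 and rho 0.74 (permutation p = 1e-05 for both, the smallest the resamples can give, n = 30), and r was 0.69 without CIA ZT16 replicate 5 and CIA ZT8 replicate 4. Adjusted over both treatments, the p values were 9.00e-05 and 0.00737 in naïve mice and 2.0e-05 for both measures in CIA mice. With the score as a covariate, the log2 fold change of Rora was -0.40 (adjusted p = 0.193), so its direction turned. In whole tissue, a larger share of Rora-expressing cells and more Rora RNA per cell cannot be told apart.

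**Figure D3:**
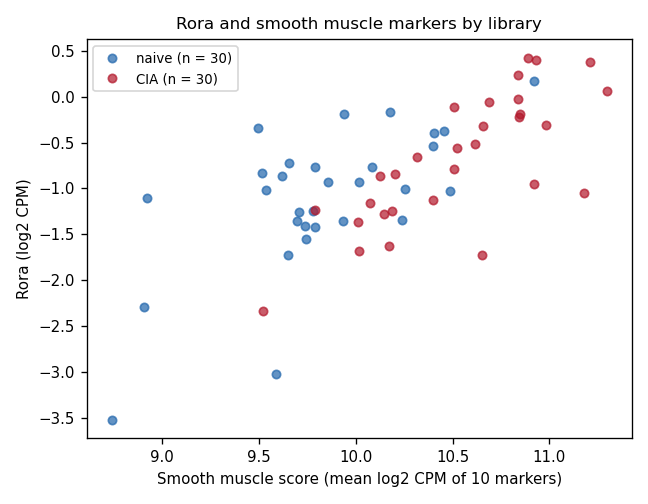
Rora (log2 CPM) against the smooth muscle score (mean log2 CPM of 10 markers), 1 point per library, 30 naïve (blue) and 30 CIA (red). Rora is higher where the score is higher within each treatment, and the CIA libraries lie further along the score.

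Within single time points edgeR called none of the 24 differences of a member either (1 of 24, that of Rora at ZT0, had an unadjusted p under 0.05), while the share of all genes called was 0.0222% at ZT0, 0.858% at ZT4, 0.0332% at ZT8, 9.28% at ZT12, 0.00554% at ZT16 and 13% at ZT20. The largest fold differences were in the hours when Nr1d1 and Nr1d2 were low. At ZT0 Nr1d1 had 15.6, 38.8, 8.14, 14.9 and 16.9 CPM in naïve and 34.9, 52.7, 26.6, 20.9 and 16.7 CPM in CIA mice (log2 fold change 0.69 ± 0.38, adjusted p = 0.333). At ZT20 Nr1d2 had 12.5, 9.93, 14.1, 8.88 and 13.9 CPM in naïve and 17.3, 15.9, 18.4, 15.6 and 28.2 CPM in CIA mice. These were the only values of a member at any of the 6 time points that did not overlap between treatments with all libraries kept (log2 fold change 0.68 ± 0.36, adjusted p = 0.190). How many of all genes did not overlap at ZT20 was not counted, so the absence of overlap is a description only. In a fit of the ZT20 libraries alone, both REV-ERB genes passed: Nr1d2 with a log2 fold change of 0.73 (adjusted p = 0.0434) and Nr1d1 with 0.57 (adjusted p = 0.0429). The share of all genes called in that fit was not counted, and the 13% above belongs to the model of 12 group means. Rora had its largest difference at ZT0, with 34, 16, 14, 8 and 34 counts in naïve and 44, 52, 24, 42 and 40 in CIA mice (log2 fold change 1.11 ± 0.49, adjusted p = 0.212).

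**Figure D4:**
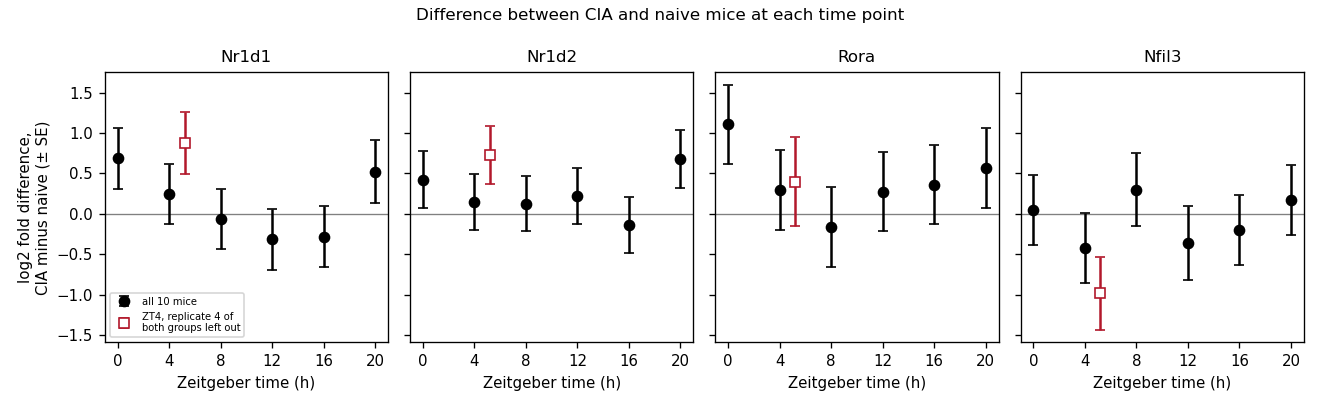
Log2 fold difference between CIA and naïve mice (± SE) at each time point, from a model of 12 group means (black, 5 against 5 mice); the open red square, drawn beside ZT4, leaves out replicate 4 of both ZT4 groups (4 against 4 mice). Without these libraries the ZT4 difference is 0.87 for Nr1d1, 0.73 for Nr1d2 and -0.99 for Nfil3, and none passes the test.

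At ZT4 the comparison turned on the pair of libraries that stood apart. With all 10 mice, Nr1d1 was 141 ± 82 CPM in naïve and 167 ± 69 CPM in CIA colon (log2 fold change 0.25 ± 0.37, adjusted p = 0.765), and 0.858% of all genes were called. Without replicate 4 of each group, the 4 CIA mice (162 to 240 CPM) lay above the 4 naïve mice (67.4 to 139 CPM), with a log2 fold change of 0.87 ± 0.38 (adjusted p = 0.127). Nr1d2 likewise did not overlap, at 70.6 to 91.8 CPM in CIA and 34.5 to 62.3 CPM in naïve mice (0.73 ± 0.36, adjusted p = 0.182). Nfil3 differed in the other direction, at 3.53 to 7.25 CPM in CIA and 9.35 to 12.6 CPM in naïve mice (-0.99 ± 0.45, adjusted p = 0.149). None of these passed the test, in a fit that called 10.9% of genes at ZT4. This run was chosen after the values had been seen, and leaving out 2 libraries that go against their groups favours a gap. The share of all genes without overlap was not counted either, so the absence of overlap is a description only.

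The daily pattern was next compared between treatments. No member passed the test of a difference in rhythm, which was called for 0.0222% of genes. Nr1d1 had an adjusted p of 0.731 (unadjusted 0.0732), Nr1d2 0.886, Rora 0.765 and Nfil3 0.982. The amplitude of Nr1d1 was lower in CIA by 0.27 on the log2 scale, with a 95% interval of the difference (CIA minus naïve) from -0.70 to 0.15, and that of Nr1d2 was lower by 0.29 (interval -0.71 to 0.13). That of Nfil3 was higher by 0.095 (interval -0.42 to 0.61). On the clock, the fitted peak of Nr1d1 was 0.72 h earlier in CIA (interval of the difference -1.40 to -0.027 h, not adjusted for the number of genes), that of Nr1d2 0.10 h earlier (interval -1.01 to 0.81 h), and that of Nfil3 0.16 h later (interval -0.96 to 1.3 h). Leaving out the ZT4 pair put the Nr1d1 peak at ZT8.54 in naïve and ZT7.55 in CIA mice, with an adjusted p of 0.706 for the difference in rhythm, and the amplitudes, naïve then CIA, at 2.48 and 2.30 for Nr1d1, 1.93 and 1.63 for Nr1d2, and 1.71 and 1.81 for Nfil3. No member passed the test of a treatment effect that differs between time points (adjusted p 0.965 for Nr1d1, Nr1d2 and Rora and 0.968 for Nfil3), and edgeR called 0% of all genes in that test, in which 4.52% had an unadjusted p under 0.05.

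Model selection with Schwarz weights (at least 0.6 to assign a class) placed Nr1d2 and Nfil3 in the class whose rhythm is shared by the treatments, with weights of 0.956 and 0.982, and Rora among arrhythmic genes with 0.876. Nr1d1 also fell in the class of the same rhythm, with 0.751, but a changed rhythm held the remaining 0.249. Without both ZT4 replicate 4 libraries its class became a changed rhythm (weight 0.742), and with either of them or 3 other single libraries left out (naïve ZT0 replicate 2, naïve ZT12 replicate 1, CIA ZT16 replicate 1) no class reached 0.6.

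Mice of the same group and hour still differed in the loop, and the members deviated together. Deviations of log2 CPM from the mean of each of the 12 groups were correlated over the 60 libraries, for 10 pairs. Regulation between these genes and a difference in clock hour between mice of a group cannot be told apart here, and neither was tested. Nr1d1 and Nr1d2 deviated in the same direction (r = 0.84, rho = 0.76, permutation p = 1e-05 for each, the smallest possible; adjusted 2.5e-05 and 3.33e-05). The relation was alike within naïve (r = 0.86) and CIA mice (r = 0.84), and r was 0.83 without CIA ZT4 replicate 4 and CIA ZT16 replicate 1. Nfil3 deviated against both: r was -0.68 and rho -0.62 with Nr1d1 (permutation p = 1e-05 for each, adjusted 2.5e-05 and 3.33e-05), and r was -0.54 and rho -0.56 with Nr1d2 (permutation p = 1e-05 and 2e-05, adjusted 2.5e-05 and 5.0e-05). Without the 2 libraries farthest from the median on the x axis, r was -0.65 with Nr1d1 and -0.60 with Nr1d2.

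Arntl deviated against Nr1d1 (r = -0.60, rho = -0.53, permutation p = 8.0e-05 and 1.6e-04, adjusted 1.6e-04 and 3.2e-04) and against Nr1d2 (r = -0.67, rho = -0.73, permutation p = 1e-05 for each, adjusted 2.5e-05 and 3.33e-05), with r of -0.54 and -0.79 without 2 libraries. It deviated with Nfil3 (r = 0.53, rho = 0.43, permutation p = 0.00247 and 0.00352, adjusted 0.00412 and 0.00587, and r = 0.44 without 2 libraries). Rora deviated with Nfil3 (r = 0.31, rho = 0.36, permutation p = 0.00937 and 0.0055, adjusted 0.0134 and 0.00786, and r = 0.32 without 2 libraries), but not detectably with Nr1d1 (r = -0.016, adjusted p = 0.898), Nr1d2 (r = 0.048, adjusted p = 0.796) or Arntl (r = -0.15, adjusted p = 0.245), each by the permutation test. With Nfil3, Rora had r = 0.42 in naïve and 0.16 in CIA mice. With Arntl, Rora had r = 0.15 in naïve and -0.64 in CIA mice. Neither difference was tested. In a further run chosen after the values had been seen, without naïve ZT4 replicate 4, CIA ZT4 replicate 4 and naïve ZT0 replicate 2, r over 57 libraries was 0.77 for Nr1d1 and Nr1d2, -0.62 for Nr1d1 and Nfil3, -0.43 for Nr1d2 and Nfil3, -0.50 for Nr1d1 and Arntl, -0.65 for Nr1d2 and Arntl, and 0.34 for Nfil3 and Arntl.

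**Figure D5:**
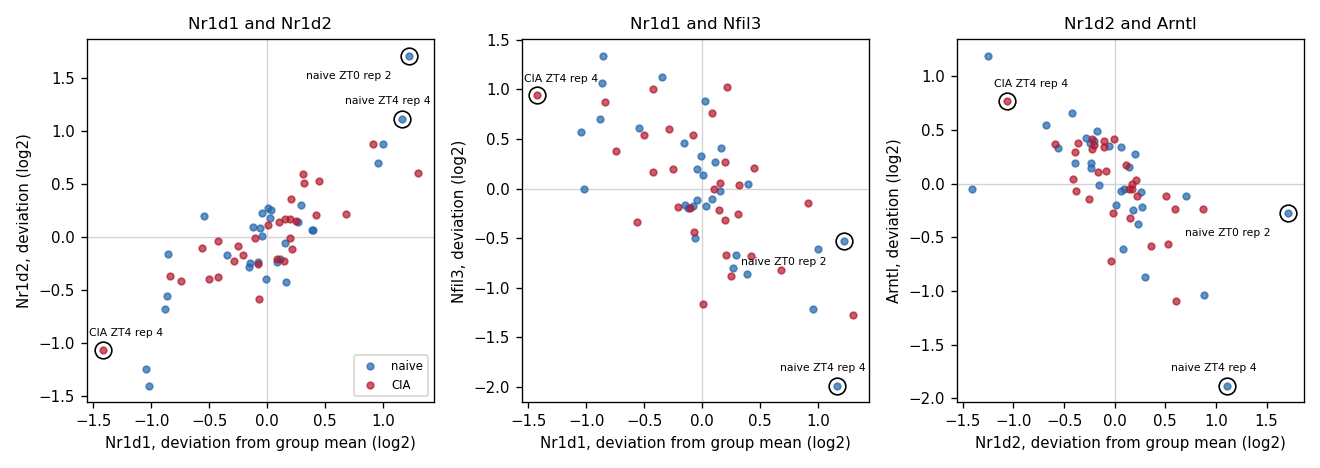
Deviation of each library from the mean of its group (log2 CPM), for Nr1d1 against Nr1d2 (left), Nr1d1 against Nfil3 (centre) and Nr1d2 against Arntl (right), naïve in blue and CIA in red; rings mark the 3 libraries named in the text where they fall. Nr1d1 and Nr1d2 lie along a rising diagonal (r = 0.84), and the other pairs along falling ones (r = -0.68 and -0.67).

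The genes whose levels ran most like each member over the 60 libraries (Pearson r of log2 CPM, among genes averaging 5 CPM or more, given as a description) were other daily genes for the 3 rhythmic members. Nr1d1 was most like Tns4 (r = 0.90), Ccdc116 (r = 0.90) and Nop53 (r = 0.88), and most opposite to Cry1 (r = -0.91), a clock repressor, and Samd1 (r = -0.87). Nr1d2 was most like Dbp (r = 0.93), Vwa5a (r = 0.88) and Ciart (r = 0.87), which encodes the repressor CHRONO, and most opposite to Arntl (r = -0.89) and Leo1 (r = -0.87). Nfil3 was most like Leo1 (r = 0.89), Arrb1 (r = 0.88), which encodes β-arrestin 1, and Fhl3 (r = 0.86), and most opposite to Dbp (r = -0.94) and Tns4 (r = -0.92). Among the 3 genes most like Rora were Nid1 (r = 0.82), which encodes the basement membrane protein nidogen 1, and Kcnn3 (r = 0.81), which encodes a small-conductance potassium channel, and Rora was most opposite to Ccdc51 (r = -0.73) and Sgpp2 (r = -0.70). These libraries share time of day and tissue make-up, so r measures both.

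The genes upstream and downstream of the loop were read from lists. All 3 clock activators, all 5 period and cryptochrome genes, all 3 DEC and CHRONO repressors and all 3 PAR bZIP activators were rhythmic in both treatments, where 35.4% of all genes were in naïve and 29.6% in CIA mice. Among these 14 genes only Cry2 was called different in level (64.7 ± 15.1 CPM in naïve and 77.6 ± 25.1 CPM in CIA mice, log2 fold change 0.26 ± 0.10, adjusted p = 0.0400), where 38% of all genes were. Treatment was the only term of this test, so the daily swing counted as spread. The SE was 0.50 for Dbp and 0.55 for Ciart, and differences in level of such genes could be missed. No result with time point as a factor is given for these 14 genes. Dbp, the D-box activator that NFIL3 opposes, had its peak at ZT10.3 in naïve and ZT10.1 in CIA mice and amplitudes of 2.75 and 2.77. The log2 ratio of Nfil3 to Dbp counts within a library ran from 2.48 ± 0.74 (SD, n = 5) at ZT20 to -5.37 ± 1.32 at ZT8 in naïve mice, and from 2.54 ± 0.28 at ZT20 to -5.74 ± 1.46 at ZT12 in CIA mice. The difference between treatments over the day did not pass the test (difference -0.11, permutation p = 0.763, adjusted 0.763).

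The REV-ERB co-repressor complex, in contrast to the receptors, was nearly flat: 4 of its 6 genes were rhythmic in naïve and 2 in CIA mice, against 35.4% and 29.6% of all genes, and the median amplitude on the log2 scale was 0.12 and 0.099. The genes called in both were Ncor1, which encodes the NCoR1 scaffold, with an amplitude of 0.18 and 0.13, and Tbl1xr1, with 0.15 and 0.14. By the cosine test Tbl1xr1 had an adjusted p of 0.0165 in naïve and 0.0428 in CIA mice. Its fitted peaks lay apart, at ZT2.74 in naïve and ZT8.00 in CIA mice, and it was assigned no rhythm class. Gps2, another subunit, was lower in CIA (36.3 ± 2.4 CPM in naïve and 34 ± 2.7 CPM in CIA mice, log2 fold change -0.097 ± 0.029, adjusted p = 0.00567), and the other 5 did not pass, where 20.4% of all genes were lower and 17.6% higher. Of 4 lipid genes of the NFIL3 programme of gut epithelium (Cd36, Scd1, Cidec and Fabp4), none was called rhythmic in either treatment or different in level, where 38% of all genes differed in level. Their summed level varied widely, from 99.3 to 757 CPM in naïve and from 80.8 to 704 CPM in CIA libraries. Which cells of the whole section carried these genes was not tested. Of 8 tested genes of type 3 lymphoid cells, 2 were lower in CIA, and of 5 tested type 2 lymphoid genes none was called, where 20.4% of all genes were lower; a further 2 genes of each list did not pass the filter on low counts. Markers of other lymphocytes were also lower in part, 2 of 4 for T cells (median log2 fold change -0.64) and 2 of 5 for B and plasma cells (median -0.45), and their part in the lymphoid counts was not tested.

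A further measure bears on the Nr1d1 counts. Nr1d1 and Thra, which encodes thyroid hormone receptor α, lie on opposite strands and overlap at their 3′ ends, by 263 exon bases in GENCODE vM21, which are 8.55% of the Nr1d1 and 5.7% of the Thra exon bases. Thra had 55.2 CPM in naïve and 62.5 CPM in CIA mice (range 34.7 to 85.5 CPM), an amplitude of 0.26 and 0.31 and a peak at ZT4.36 and ZT3.40. The libraries were made with a stranded kit, but whether strand was used in counting is not stated, so reads in the overlap may be shared.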

How the data were processed

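RNA was measured in 60 mid-colon libraries, 1 per mouse. The authors made stranded mRNA libraries, read them as paired ends, and used bcl2fastq 2.17.1.14, Trimmomatic 0.36, STAR 2.5.3 (mm10/GRCm38) and Rsubread. The deposited table holds raw counts per Entrez gene, and nothing upstream was repeated. Of counts from 1 to 20, 74.0% were even, so both reads of a pair may have been counted, and halved counts were tried as an alternative. Symbols and promoter sequences came from RefSeq (GRCm38.p6), which named 25275 of 27179 identifiers and gave a promoter for 4 of 4 members, and exon lengths from GENCODE vM21. RPKM were computed here from CPM and these lengths. Total counts per library are given in the report; the depth limits precision mainly for Rora.

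R 4.3.3 was used, and its packages edgeR 4.0.16, limma 3.58.1 and DESeq2 1.42.0. Genes were kept by filterByExpr with 12 groups (minimum count 10, minimum total 15) and scaled by TMM. Tests were quasi-likelihood F tests of edgeR in their legacy form over all genes, with Benjamini-Hochberg adjustment and a threshold of 0.05: treatment alone over 60 libraries, contrasts in a model of 12 group means, and a 24 h cosine per treatment. Standard errors of fold changes are the absolute log2 value divided by the square root of F. Amplitude, peak and their SE came from limma on log2 CPM (prior count 2). The other tests were permutation tests with 100000 resamples or exact. The scripts were tested on simulated data.

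Genes named were the members, genes of 7 lists around the loop, and for each member the 3 genes most like and 2 most unlike it with a mean of at least 5 CPM. A further 2 lists of lymphoid genes and the marker lists of other cell types are given as counts. The members and lists were chosen with earlier results of these data known. For some genes picked by this rule, no result is given here. Alternatives were other scaling, tools, filters, covariates and prior counts, a replicate block and libraries left out. Same-numbered mice are not stated to be paired.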

Additional observations from a re-analysis of the deposited data

Results flagged for a closer look

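Dixon's test at the 95% level was applied to each member in each of the 12 groups of 5 mice, and 4 of 48 sets of values held a mouse far from the other 4, where chance alone gives about 2.4. In CIA ZT4 replicate 4, Nr1d1 was 55.9 CPM against 161 to 240 CPM in the others, and Nr1d2 was 30.5 CPM against 70.2 to 92.0 CPM. In naïve ZT4 replicate 4, Nfil3 was 1.91 CPM against 9.32 to 12.6 CPM. In CIA ZT20 replicate 5, Nr1d2 was 28.2 CPM against 15.6 to 18.4 CPM; its Nr1d1, at 14.3 CPM, was also the highest of its group, and its Nfil3, at 16.8 CPM, lay within the range of the others (16 to 29.4 CPM). The total counts of the ZT4 libraries, 46212784 for the naïve and 45952728 for the CIA one, were close to the medians of their treatments.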

How the results depend on the processing

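Over 19 alternative settings other than leaving out 1 library, 304 of 312 values of the members kept their side of the threshold, their class or their count of called steps (within 1.5 times), or moved by less than the spread between mice. Of 119 log2 fold changes among them, 8 changed sign, none of them called: Rora once the smooth muscle score entered the model (-0.40), Nr1d1, close to 0 at -0.0096, in 5 settings (0.0045 to 0.22), and Nfil3, at -0.020, among genes averaging 5 CPM or more (0.026) and without naïve ZT0 replicate 5 and CIA ZT12 replicate 2 (0.12). The count of 304 is a description. It includes 16 amplitudes and peaks with 12 h terms added, which could not move because such terms are independent of the 24 h terms in a balanced design. Amplitudes and peaks were also held against the SD between mice, which is wider than their SE (0.60 against 0.15 for the amplitude of Nr1d1). The rhythms of Nr1d1, Nr1d2 and Nfil3 were called under every alternative run in both treatments, and that of Rora under none. The class of Nr1d1 was a changed rhythm with Akaike weights (0.729) and without replicate 4 of both ZT4 groups (0.742), and none with a minimum weight of 0.8 (0.751); that of Rora was none with Akaike weights (0.421). Fitted on their own, the ZT20 libraries gave calls for Nr1d1 (log2 fold change 0.57) and Nr1d2 (0.73), with the share of all genes called in that fit not counted. Without replicate 4 of both ZT4 groups, 2 steps of Nfil3 in naïve mice and 2 of Nr1d2 in CIA mice were called, against 0 and 1. The causes were not tested. Leaving out each library in turn gave log2 fold changes of 0.39 to 0.51 for Rora, weights of 0.513 to 0.870 for the class of Nr1d1, 1 to 2 steps of Nr1d2 and 0 to 2 of Nfil3 in naïve mice, and 0 to 2 steps of Nr1d2 and 0 to 1 of Nfil3 in CIA mice. Rora had no value under a minimum mean of 5 CPM, because it did not pass that filter.

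Over all genes, 3179 were higher and 3681 lower in CIA, against 693 and 735 once the smooth muscle score was a covariate, and 2186 were lower with a mean of at least 5 CPM. A difference in rhythm was called for 4 genes, for 30 with no filter, 1 with halved counts, and 0 with DESeq2, limma, a mean of at least 5 CPM, the replicate block or without naïve ZT0 replicate 5 and CIA ZT12 replicate 2, and for 0 to 7 with 1 library left out. Same-numbered mice of the 2 treatments did not deviate together (30 pairs, r from -0.47 to 0.45, median -0.044), so the replicate number was not read as a pairing. With it as a block, the log2 fold change was 0.0045 for Nr1d1, 0.15 for Nr1d2, 0.42 for Rora and -0.037 for Nfil3, and it changed no call of a member. Low counts limit what can be said of Rora, with 2 to 61 counts per library.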
